A study of Mus musculus with 10 samples.

Results

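The 10 genes described here encode the immediate early and AP-1 transcription factors Fos, Fosb, Fosl1, Fosl2, Jun, Junb, Egr1, Egr2 and Klf4 and the immediate early protein Ier3. They were selected by symbol from the deposited count table, which has 60676 rows, and each symbol matched 1 row through its Ensembl identifier. The set was drawn up with values of these same comparisons in view, so its differences between groups and lines are descriptions. They are given with the share of all tested genes that passed the same threshold, and no test on the set was made.

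Immediate early genes are transcribed within minutes of a growth factor, cytokine or stress signal, without new protein synthesis, and most of their messages decay quickly. Mitogen-activated protein kinases such as ERK and JNK switch many of them on through the factors SRF, ETS and CREB. Fos and Jun proteins pair through leucine zippers to form AP-1, which binds short DNA sites near genes of growth, invasion and inflammation. In tumour cells the pathway often runs at a raised steady level, so that a late time point reads the standing level of these messages and not the first burst.

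RNA was sequenced from 2 mouse tumour cell lines in culture. MC38 derives from a colon adenocarcinoma and B16 from a melanoma. Every library came from cells with knockdown of Sdc1, the gene of syndecan-1, a heparan sulfate proteoglycan of the cell surface, and every library was labelled as stimulated with 10 ng/ml interferon gamma, with 24 h of treatment in the protocol. The 5 groups had 2 libraries each: MC38 knockdown alone, MC38 knockdown with the c30 mutant, MC38 knockdown with the ect mutant, B16 knockdown alone, and B16 knockdown with wild-type Sdc1. The sources used here do not give what c30 and ect change in the protein, and cells without knockdown, without interferon or with an empty vector were not analysed here. The knockdown and re-expression constructs and their promoters, and whether a group was 1 clone or a pool, are also not given. Whether both libraries of a group were separate cultures is not in the labels. The p-values therefore cover the spread between these libraries, which may be technical.

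Libraries held 11349447 to 15041133 counts, and levels are given as CPM, counts per 1000000 counts of the library. A count of 0 in a library allows a level of up to 0.199 to 0.264 CPM, taken as 3 counts, and such limits cover counting error only. Sdc1 itself was at 24.5 and 29.99 CPM in MC38 knockdown, 97.0 and 99.5 in c30, and 22.4 and 25.2 in the libraries labelled ect, which overlapped knockdown. In B16 it was at 40.7 and 43.1 CPM in knockdown and 71.1 and 56.9 with wild-type Sdc1. The ect label was therefore not mirrored by the Sdc1 count, and directions drawn from these libraries rest on the label alone. The 8 melanocyte markers summed to 13530 to 14290 CPM in B16 and to 6.33 to 7.93 in 5 of the 6 MC38 libraries, against 12.9 in c30 replicate 2. Of the 8 epithelial markers, MC38 had Cdh1 at 5.53 to 13.9 CPM, Epcam at 0.151 to 0.527 and Cdx2 at 0 to 0.0726, so the markers that define colon epithelium were near 0.

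Promoter sequence is shown for Klf4, Ier3, Fosl2, Jun and Fos, the members whose levels carry the differences below and that have an entry in the RefSeq promoter table. The 250 bases before the annotated start are from RefSeq on build GRCm38.p6, 5′ to 3′ on the gene's own strand, with motif matches in capitals. The count table was made on GRCm39, so these coordinates belong to the promoter table alone. The motifs searched on both strands were the AP-1 site TGACTCA or TGAGTCA, the CRE-like site TGACNTCA, the CRE core TGACG, the EGR site GCGNGGGCG, the STAT site TTCNNNGAA, the TATA box TATAAA, and the CArG box, the site of SRF, by name. A CRE-like site with G in its middle also holds a CRE core.
Klf4 (chr4:55532476-55532725, minus strand): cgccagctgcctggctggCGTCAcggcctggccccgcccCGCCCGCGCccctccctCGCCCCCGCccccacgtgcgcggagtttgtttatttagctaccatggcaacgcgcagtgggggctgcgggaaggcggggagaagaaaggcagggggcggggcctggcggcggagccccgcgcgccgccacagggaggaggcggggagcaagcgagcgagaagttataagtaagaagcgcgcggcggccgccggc
Ier3 (chr17:35821463-35821712, plus strand): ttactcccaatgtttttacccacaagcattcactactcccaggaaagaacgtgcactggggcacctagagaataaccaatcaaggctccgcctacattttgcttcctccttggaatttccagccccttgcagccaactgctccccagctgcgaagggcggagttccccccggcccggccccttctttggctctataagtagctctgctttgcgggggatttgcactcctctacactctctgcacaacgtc
Fosl2 (chr5:32136222-32136471, plus strand): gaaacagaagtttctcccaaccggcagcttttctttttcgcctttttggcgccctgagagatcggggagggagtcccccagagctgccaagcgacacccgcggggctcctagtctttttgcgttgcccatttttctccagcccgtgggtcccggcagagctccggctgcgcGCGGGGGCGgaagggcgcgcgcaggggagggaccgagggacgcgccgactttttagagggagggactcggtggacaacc
Jun (chr4:95052223-95052472, minus strand): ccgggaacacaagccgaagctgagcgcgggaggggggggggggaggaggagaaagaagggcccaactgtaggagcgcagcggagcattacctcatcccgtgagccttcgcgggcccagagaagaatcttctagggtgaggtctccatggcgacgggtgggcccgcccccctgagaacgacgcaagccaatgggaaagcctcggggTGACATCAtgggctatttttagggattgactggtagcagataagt
Fos (chr12:85473640-85473889, plus strand): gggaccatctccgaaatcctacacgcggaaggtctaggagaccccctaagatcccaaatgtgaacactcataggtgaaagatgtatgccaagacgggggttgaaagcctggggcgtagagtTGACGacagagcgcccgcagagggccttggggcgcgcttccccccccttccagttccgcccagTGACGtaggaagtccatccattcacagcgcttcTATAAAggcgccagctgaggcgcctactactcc

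Among the printed windows, Jun held 1 CRE-like match, TGACATCA, 45 to 38 bases before its start, where CREB and Jun-ATF pairs can bind. Such a match stood in 7.49% of 32851 promoter windows of the same length. Fos held 2 matches to the CRE core and a TATA box 33 to 28 bases before its start. Fosl2 held 1 EGR site and Klf4 held 2, a motif found in 4.7% of windows. The Ier3 window held none of the motifs. Over the 8 members with an entry, 12 starts in all, the CRE core was in the windows of 5 genes (Egr2, Fos, Fosb, Junb and Klf4) against 17.8% of all windows. An EGR site was in 3 genes, Fosb being the other one. The CArG box was in Egr2 alone, before 4 of its 5 starts, against 1.47% of windows. The windows of starts 3, 4 and 5 of Egr2 overlap and hold the same match. Members are counted here by gene and the shares by window, so the units differ, and Egr2 had 5 windows to be searched. No member window held the AP-1 site, present in 4.46% of windows, or the STAT site, present in 7.02%. A match is a description of these letters and not evidence of binding, and sites outside the window were not searched.

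**Figure D1:**
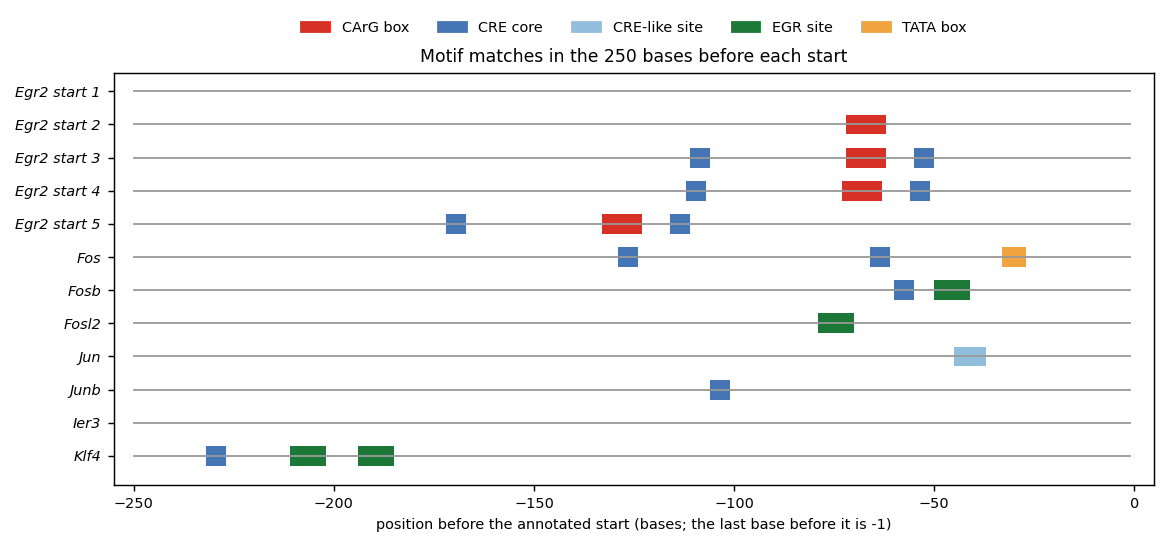
Motif matches on both strands in the 250 bases before each annotated start, by position before the start in bases; each grey line is 1 start of 1 gene and coloured blocks are matches. Egr2 has 5 starts in the table, the CRE core recurs in 5 genes, and the Ier3 window is empty.

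The families were first described by level. Within MC38, per kilobase of exon, Klf4 had the highest mean level of the 10 genes at 99.1 CPM per kb, followed by Ier3 at 74.5 and Jun at 63.4. The libraries of Ier3 overlapped those of both neighbours in this order (54.97 to 85.2 CPM per kb for Ier3, 84.5 to 123 for Klf4, 58.3 to 67.4 for Jun). Within each single MC38 library Klf4 was above Ier3. In the knockdown libraries Jun, at 58.3 and 61.2 CPM per kb, was above Ier3, at 57.8 and 54.97, and in each c30 and ect library it was below. Junb at 9.81, Fosl1 at 8.24 and Fosl2 at 7.35 CPM per kb formed a middle tier, in which Fosl1 overlapped both others. Egr1 stood below them at 3.74 CPM per kb. Fos at 0.478 and Fosb at 0.354 CPM per kb overlapped each other, and Egr2 at 0.167 was lowest. All 10 were above the counting floor in every MC38 library.

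In B16 the order differed. Ier3 led at 41.1 CPM per kb, followed by Jun at 23.0 without overlap. Junb at 6.80 and Fosl2 at 5.40 CPM per kb overlapped. Fos at 1.08 and Klf4 at 0.725 CPM per kb overlapped, and Egr1 followed at 0.270. Fosb, Egr2 and Fosl1 overlapped at the bottom, at 0.0419, 0.0245 and 0.0191 CPM per kb, and Egr2 and Fosl1 lay below the counting floor in all 4 B16 libraries.

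**Figure D2:**
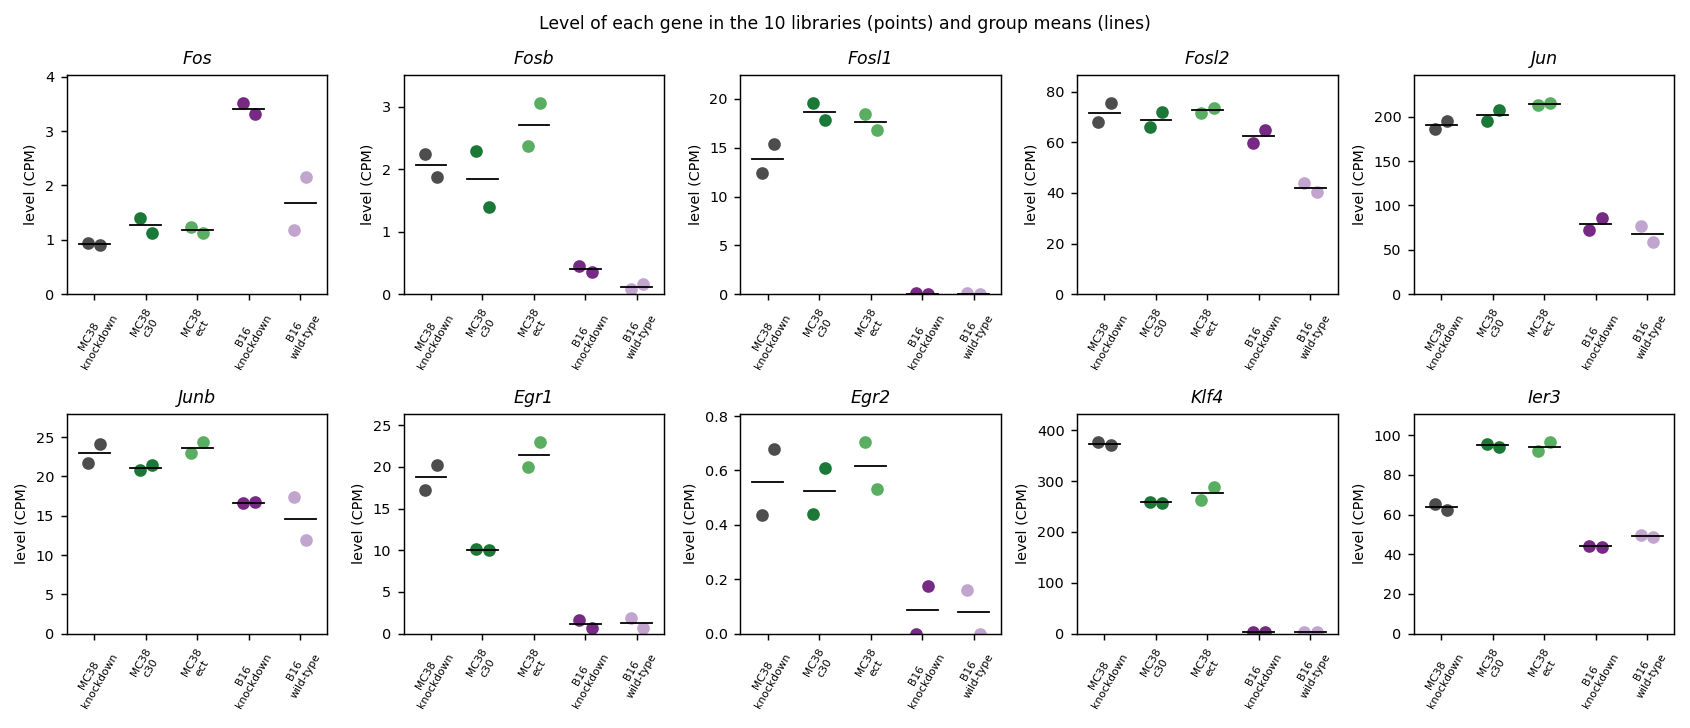
Level of each of the 10 genes in CPM (vertical axis, from 0, scaled per gene) in the 10 libraries (points) with the group mean as a line, 5 groups of 2 libraries. Klf4, Fosl1, Egr1, Egr2 and Fosb are low in B16 on the scale of their MC38 levels. Klf4 is lower and Ier3 higher in both mutant groups of MC38 than in knockdown, and Egr1 is low in c30 alone among the MC38 groups.

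Fos proteins do not pair with one another and bind DNA as AP-1 together with a Jun protein. Fos and Fosb carry strong activation domains, while Fosl1 (Fra-1) and Fosl2 (Fra-2) lack them and dominate in many invasive tumours. In both lines Fosl1 and Fosl2 together made up most of the Fos-family message. Fosl1 made up 44.0 to 55.3% of the family's CPM per kb in the 6 MC38 libraries and Fosl2 39.1 to 50.6%. Fos held 2.40 to 3.45% and Fosb 1.32 to 2.91% there. In B16, Fosl2 alone held 79.4 to 89.1%, Fos 9.92 to 19.2% and Fosl1 0 to 0.765%. The family sum was 13.9 to 17.4 CPM per kb in MC38 and 5.09 to 8.18 in B16.

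Jun, Junb and Jund, the last not among the 10 genes, are the Jun proteins, of which Jun is the strongest activator and Junb often restrains it. Jun held 81.8 to 84.7% of the Jun-family CPM per kb in MC38 and 67.8 to 72.4% in B16. Junb held 12.1 to 14.1% in MC38 and 19.7 to 22.1% in B16. Jund held the remaining 3.13 to 4.45% and 8.004 to 10.95%. The sum was 70.8 to 80.6 CPM per kb in MC38 and 26.1 to 37.2 in B16, above the Fos-family sum in every library. Some reads may be shared with neighbours, because the strand setting of the counting is not given. Fosl1 shares 1163 of its 2033 exon bases with Ccdc85b on the opposite strand, which was at 35.8 to 44.9 CPM in MC38 and 5.35 to 7.76 in B16. Jun shares 232 exon bases with the antisense gene Junos (34.1 to 43.3 CPM in MC38, 0.554 to 1.83 in B16), and Junb shares 173 with Prdx2, which was at 172 to 191 CPM in MC38 and 174 to 196 in B16.

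**Figure D3:**
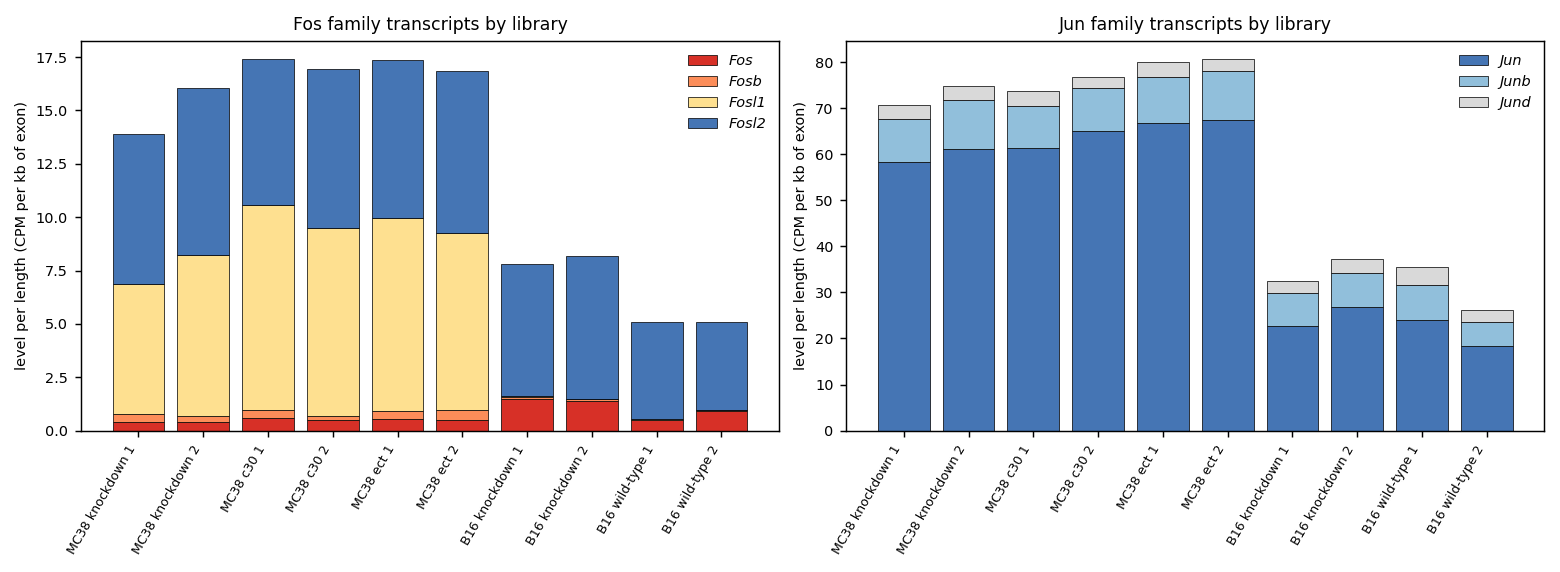
Stacked level per length (CPM per kb of exon, axis from 0) of the Fos family (left) and the Jun family (right) in each of the 10 libraries, 1 bar per library. Fosl1 and Fosl2 share the MC38 bars while Fosl2 fills most of each B16 bar, and Jun is the largest part of every Jun-family bar.

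Re-expression of the c30 mutant in MC38 was compared with knockdown alone to ask what this form of Sdc1 changed. Ier3 and Fosl1 were higher and Egr1 and Klf4 lower, by 1.35-fold to 1.86-fold, and Fos, Fosb, Fosl2, Jun and Junb did not pass. These 4 calls of 9 members tested (edgeR, adjusted p under 0.05) stand beside 7.75% of 15031 genes called in the same comparison, 3.3% higher and 4.45% lower. Egr2 was left out by the filter on low counts, at 0.436 and 0.678 CPM in knockdown and 0.441 and 0.609 in c30. The median log2 fold change of the 9 members was -0.05, with 0.0013 over all genes tested. Because the genes were chosen with this comparison in view, nothing is read from that count. In bulk RNA, fewer cells expressing a gene and less RNA per cell cannot be told apart.

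Egr1 is a zinc-finger factor that responds to ERK within minutes. It was at 17.3 and 20.3 CPM in MC38 knockdown, 10.1 and 10.0 in c30 and 19.9 and 22.9 in ect. Both c30 libraries lay below all 4 others, and knockdown and ect overlapped. The log2 fold change of c30 against knockdown was -0.89 ± 0.14 (SE, adjusted p = 3.3e-06), a fall to 10.1 ± 0.0858 CPM from 18.8 ± 2.12 (SD, n = 2 each).

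Klf4, a Krüppel-like factor of epithelial differentiation and one of the pluripotency factors, was the most abundant of the 10 genes in MC38. It was at 376 and 371 CPM in knockdown, 258.5 and 257.6 in c30 and 262.5 and 289 in ect. Both knockdown libraries lay above the 4 mutant libraries. The log2 fold change of c30 against knockdown was -0.53 ± 0.047 (SE, adjusted p = 5.8e-15), the 7th smallest p of all 15031 genes.

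Ier3 is an immediate early protein that modulates ERK and NF-kappa-B signalling and cell survival. It was at 65.3 and 62.2 CPM in knockdown, 95.8 and 93.9 in c30 and 92.1 and 96.3 in ect. All 4 mutant libraries lay above both knockdown libraries and overlapped each other. The log2 fold change of c30 against knockdown was 0.58 ± 0.063 (SE, adjusted p = 2.8e-11), from 63.7 ± 2.24 to 94.9 ± 1.30 CPM (SD, n = 2 each).

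Fosl1, an AP-1 subunit induced by sustained ERK activity, was at 12.4 and 15.4 CPM in knockdown, 19.6 and 17.9 in c30 and 18.5 and 16.8 in ect. Both mutant groups lay above knockdown. Its log2 fold change in c30 was 0.43 ± 0.14 (SE, adjusted p = 0.0335), close to the threshold. The call was lost with DESeq2 (adjusted p = 0.324) and when knockdown replicate 1, c30 replicate 1 or c30 replicate 2 was left out, with estimates from 0.28 to 0.59 over the libraries left out.

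Jun was at 186 and 195 CPM in knockdown, 195.6 and 207 in c30 and 213 and 215 in ect. Junb was at 21.7 and 24.2, 20.8 and 21.4, and 22.9 and 24.3 CPM in the same order. Fosl2 stayed within 65.9 to 75.4 CPM over all 6 MC38 libraries, with overlap between all groups. Fos, at 0.944 and 0.904 CPM in knockdown and 1.41 and 1.13 in c30, and Fosb, at 2.25 and 1.88 and at 2.29 and 1.39, rested on few counts. Their log2 fold changes in c30 were 0.46 ± 0.53 and -0.17 ± 0.39 (SE), so that changes of the size seen in Egr1 were not detectable for Fos at this depth. In all, 7 of the 10 genes had c30 and knockdown libraries that did not overlap, 4 higher and 3 lower, beside 48.9% of genes with a mean of at least 1 CPM. The same limit applies to each such share below, while the 10 genes were counted at any level.

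Other markers moved with the same groups. The 7 endothelial and stromal markers summed to 143 to 152 CPM in MC38 knockdown, 106 to 113 in c30 and 102 to 109 in ect, and Pdgfra and Pdgfrb, 2 of 5 tested, were called lower in both comparisons. The sum was mostly Pdgfrb (66.3 to 97.7 CPM) and Pdgfra (30.7 to 48.7), with Kdr and Lum at or near 0. The 8 epithelial markers summed to 16.4 to 16.8 CPM in knockdown, 10.45 to 13.7 in c30 and 9.66 to 10.3 in ect, with Cdh1 the 1 of 3 tested that was called lower in both. The 7 leukocyte markers summed to 1.52 to 1.96 CPM in knockdown, 2.26 to 2.29 in c30 and 2.86 to 2.99 in ect, without overlap, with Cd3e and Adgre1 at 0 counts. By edgeR 0 of 1 tested was called, Lyz2, at an unadjusted p of 0.174 in c30 and 0.0484 in ect. The part of these lists in the differences of the 10 genes was not tested. Of the 6 heat shock genes, which respond to handling, 4 were tested and 0 were called by edgeR in c30 or ect. In c30 and ect 0 and 1 of them had an unadjusted p under 0.05. The sum of the 6 was 5155 to 5382 CPM over the MC38 libraries, mostly Hspa8 (4365 to 4583). Without c30 replicate 2, the library with more melanocyte RNA, the log2 fold changes in c30 were -0.90 for Egr1, -0.54 for Klf4, 0.58 for Ier3 and 0.48 for Fosl1, of which Fosl1 was not called.

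The libraries labelled ect were compared with the same knockdown libraries, so the c30 and ect comparisons share their controls and are given side by side. Ier3 and Jun were higher and Klf4 lower in ect than in knockdown, 3 of 9 members tested beside 8.16% of all genes called (3.55% higher, 4.61% lower). Ier3 had a log2 fold change of 0.58 ± 0.063 (SE, adjusted p = 2.1e-11) and reached 94.2 ± 2.97 CPM (SD, n = 2). Klf4 had -0.43 ± 0.047 (SE, adjusted p = 2.8e-11), reaching 275.5 ± 18.5 CPM from 373 ± 3.62 (SD, n = 2 each). Jun, the main AP-1 partner, had 0.18 ± 0.051 (SE, adjusted p = 0.0125), from 190.5 ± 6.50 to 214 ± 1.34 CPM. The Jun call was lost with DESeq2 (adjusted p = 0.0744) and when knockdown replicate 1 or either ect library was left out.

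Fosl1 had a log2 fold change of 0.35 ± 0.14 in ect (SE, adjusted p = 0.101) and Egr1 0.21 ± 0.13 (adjusted p = 0.359), and neither passed. Fosb, at 2.37 and 3.06 CPM in ect, had 0.41 ± 0.36, and Fos, at 1.23 and 1.13 CPM, had 0.36 ± 0.53. Fosl2 and Junb had 0.03 ± 0.069 and 0.06 ± 0.11. Egr2 was at 0.703 and 0.532 CPM in ect and was not tested. The median over the 9 members was 0.21, with 0.0016 over all genes. Libraries of ect and knockdown did not overlap for 6 of the 10 genes, 5 higher and 1 lower, beside 49.4% of genes.

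**Figure D4:**
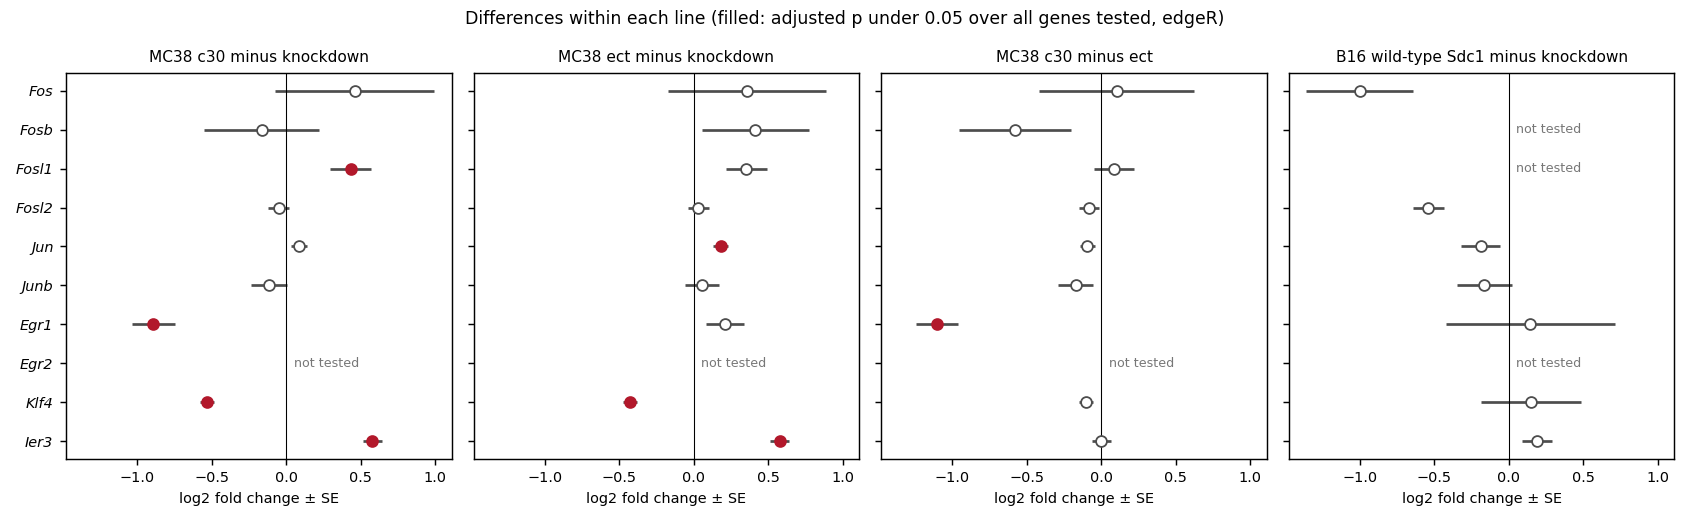
Log2 fold change with its standard error (horizontal axis) of each of the 10 genes in 4 comparisons within a line; filled points passed an adjusted p under 0.05 over all genes tested in edgeR. Egr1 is filled in the c30 comparisons and not in ect against knockdown, Klf4 and Ier3 are filled in both mutants against knockdown, and no point is filled in B16.

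The 2 mutants were then compared with each other directly. Egr1 was the 1 member of 9 that differed, beside 0.299% of all genes called (0.133% higher, 0.166% lower). It was 2.15-fold lower in c30 than in ect, with a log2 fold change of -1.10 ± 0.14 (SE, adjusted p = 9.2e-08), the 3rd smallest p of 15031 genes. Ier3 had a log2 difference of 0.001 ± 0.061 between the mutants, Klf4 -0.10 ± 0.048, Jun -0.09 ± 0.051 and Fosl1 0.08 ± 0.13. A p that misses the threshold does not show that the 2 mutants act alike on these genes. Fosb, with 42 counts in c30 and 73 in ect, had -0.58 ± 0.37. Fos had 0.10 ± 0.52, Fosl2 -0.08 ± 0.070 and Junb -0.17 ± 0.12, and Egr2 was not tested. Libraries of the mutants did not overlap for 5 of the 10 genes, Egr1, Fosb, Jun, Junb and Klf4, all lower in c30, beside 38.3% of genes.

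In B16, wild-type Sdc1 was compared with knockdown alone. Fos and Fosl2 had the most negative estimates of the 7 members tested, and no member passed, beside 0.0% of 14336 genes called (edgeR). At an unadjusted p under 0.05 there were 2 of 7 members, Fosl2 and Fos, beside 5.52% of all genes, and DESeq2 called 0 members and 11 genes. Egr2, Fosb and Fosl1 were too low to be tested. The median log2 fold change of the 7 was -0.16, with 0.0003 over all genes.

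Fosl2 was at 59.8 and 65.0 CPM in B16 knockdown and 43.9 and 40.2 with wild-type Sdc1, and the groups did not overlap. Its log2 fold change was -0.54 ± 0.10 (SE, adjusted p = 0.269), the 14th smallest p in the comparison. The estimate was -0.60 without wild-type replicate 1 and -0.49 without wild-type replicate 2. It was -0.60 and -0.49 without knockdown replicate 1 and 2. Each of these fits leaves 1 library in a group, so no p is given, and whether Fosl2 passed differed between them. Fosl2 passed when all 10 libraries shared 1 fit (adjusted p = 0.0067), where 27 of all genes passed. With no filter on low counts it also passed (adjusted p = 0.0072), where 42 of all genes passed. The main fit called 0 genes.

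Fos was at 3.51 and 3.31 CPM in B16 knockdown and 1.19 and 2.16 with wild-type Sdc1, without overlap, and had a log2 fold change of -0.999 ± 0.36 (SE, adjusted p = 0.877). These values rest on 84 and 42 counts. Ier3 was at 44.2 and 43.6 CPM in knockdown and 49.7 and 48.5 with wild-type Sdc1, with a log2 fold change of 0.19 ± 0.10. Klf4 was at 2.14 and 2.09 CPM and at 2.37 and 2.24, with 0.15 ± 0.33. Jun was at 72.1 and 85.7 CPM and at 76.9 and 58.9, with overlap and a log2 fold change of -0.19 ± 0.13. Junb, at 16.6 and 16.8 and at 17.3 and 11.9 CPM, also overlapped. Egr1 was at 1.60 and 0.696 CPM in knockdown and 1.82 and 0.719 with wild-type Sdc1, so its libraries differed more within a group than between groups. Fosb was at 0.458 and 0.348 CPM in knockdown and 0.0792 and 0.160 with wild-type Sdc1, 10 counts against 3. Libraries did not overlap for 5 of the 10 genes, 3 lower and 2 higher, beside 35.2% of genes with a mean of at least 1 CPM. Fosb, among the 5, did not reach that mean. Of the marker lists in B16, the 8 melanocyte genes summed to 13530 to 13580 CPM in knockdown and 13860 to 14290 with wild-type Sdc1, without overlap. By edgeR 0 of 8 were called, with Tyr and Mitf at an unadjusted p of 0.0036 and 0.0383. The 8 epithelial genes summed to 3.66 to 4.2 CPM in knockdown and 3.27 to 3.32 with wild-type Sdc1, also without overlap, and 0 of 2 tested were called, with Cdh1, at 0.087 to 0.871 CPM in B16, at an unadjusted p of 0.0367. The leukocyte, endothelial and stromal, and heat shock sums overlapped between the B16 groups, with 0 of 2, 0 of 2 and 0 of 4 genes tested called and 0 of each at an unadjusted p under 0.05. The part of these lists in the values of the 10 genes was not tested.

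The effect of wild-type Sdc1 in B16 was set against each mutant's effect in MC38 as a difference of differences over all 10 libraries, in which the line and the form of Sdc1 differ together. Fosl2 was the 1 member of 9 called against ect, with a difference of -0.57 ± 0.13 on the log2 scale (SE, adjusted p = 0.0312), beside 0.486% of 16877 genes called (0.284% higher, 0.201% lower), and 6 of 9 had an unadjusted p under 0.05 beside 10.7% of genes. Against c30 its difference was -0.49 ± 0.13 (adjusted p = 0.100), and 0 members of 9 were called beside 0.284% of genes (0.148% higher, 0.136% lower). There too 6 of 9 members had an unadjusted p under 0.05, beside 10.4% of genes, and DESeq2 called 0 members. The 6 against c30 were Egr1, Fos, Fosl2, Jun, Ier3 and Klf4, and against ect Fosb stood in place of Egr1. Ier3, higher with both mutants in MC38, had differences of -0.39 ± 0.11 against c30 (adjusted p = 0.162) and -0.39 ± 0.11 against ect (adjusted p = 0.151). Klf4 had 0.68 ± 0.23 against c30 (adjusted p = 0.334) and 0.57 ± 0.23 against ect (adjusted p = 0.434), and Egr1 had 1.03 ± 0.48 against c30 (adjusted p = 0.460). Against ect Egr1 had -0.07 ± 0.48. In the order c30 and ect, Fos had -1.46 ± 0.59 and -1.36 ± 0.59, and Jun -0.27 ± 0.13 and -0.37 ± 0.13. Junb had -0.05 ± 0.21 and -0.22 ± 0.21. Fosb had -1.50 ± 0.96 and -2.08 ± 0.95, and Fosl1 -0.44 ± 2.03 and -0.36 ± 2.03, on 13 and 2 counts in B16. Egr2 was not tested. Without B16 wild-type replicate 1, the difference of Ier3 was -0.41 against c30 and -0.41 against ect, and that of Jun -0.48 and -0.58. That fit leaves 1 library in the group. Many more of all genes passed there than in the main fit, so no p is given for it.

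Between the knockdown groups, B16 had less of 7 of the 9 members tested and more of Fos, 8 calls beside 68.2% of all genes (33.8% higher, 34.3% lower). Line, tissue of origin and everything else that differs between the cultures cannot be told apart here. Klf4 and Fosl1 differed most, with log2 fold changes of -7.42 ± 0.11 and -8.06 ± 0.46 between the knockdown groups (SE, edgeR adjusted p = 5.0e-28 and 5.9e-15). The count ratios given next pool all libraries of each line, re-expression groups included. Klf4 was at 258 to 376 CPM in MC38 and 2.09 to 2.37 in B16, 23318 counts against 110 over all libraries, which is 138-fold more per count sequenced (95% interval 115 to 168, counting error only). Fosl1 had 1265 counts in MC38 against 2 in B16, a ratio of 412 with a 95% interval of 114 to 3408.

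Egr1 was lower in B16 knockdown, with a log2 fold change of -3.94 ± 0.28 (SE, adjusted p = 7.4e-13), as were Fosb at -2.28 ± 0.51 (adjusted p = 0.0003) and Jun at -1.23 ± 0.093 (adjusted p = 3.6e-11). Ier3 was lower at -0.50 ± 0.082 (adjusted p = 5.8e-06) and Junb at -0.42 ± 0.15 (adjusted p = 0.0129). The Junb call was lost with DESeq2 (adjusted p = 0.0593). It was also lost without MC38 knockdown replicate 2 or either B16 knockdown library, fits that leave 1 library in a group. Estimates of Junb ran from -0.50 to -0.33 over the libraries left out. Fos went the other way, with 1.91 ± 0.40 (adjusted p = 0.00012), and was at 3.31 to 3.51 CPM against 0.904 to 0.944. Fosl2 had -0.16 ± 0.087 (adjusted p = 0.104) and was the tested member without a call. Egr2, a factor of myelination and immune cells, had 43 counts in MC38 and 4 in B16, a ratio of 7.01 (95% interval 2.55 to 26.9). Knockdown libraries of the lines did not overlap for all 10 genes, beside 85.9% of genes with a mean of at least 1 CPM, which Egr2 did not reach. The median of the 9 members was -1.23, with -0.01 over all genes. The 4 heat shock genes tested were all called lower in B16 knockdown. Their log2 fold changes were -0.42 for Hspa8, -1.29 for Dnajb1, -1.90 for Hsph1 and -2.73 for Hspa1b. The sum of the 6 listed was 3271 to 3638 CPM in B16, mostly Hspa8 (3046 to 3411). The part of the heat shock genes in the differences of the 10 genes was not tested.

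The rest of the pathway was described from 7 lists with 94 genes, none of them among the 10. In c30 against knockdown, 12 of 84 tested were called higher and 4 lower, and in ect 13 higher and 3 lower, beside the 7.75% and 8.16% of all genes. With DESeq2 these counts of 16 and 16 came to 6 and 7. Without c30 replicate 1 or 2 the c30 count was 6 or 4, and without ect replicate 1 or 2 the ect count was 10 or 9. The median over the lists was 0.03 in c30 and 0.06 in ect. In c30 against ect 1 of 84 was called, Ptgs2, which encodes the inducible cyclooxygenase, at -0.38 ± 0.073 (SE). In B16, 0 of 79 were called by edgeR or DESeq2 and 4 had an unadjusted p under 0.05.

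Of the ERK feedback genes, which encode phosphatases and adaptors that dampen the kinases, 3 of 8 tested were called in each mutant. Over all genes tested, 7.75% were called in c30 and 8.16% in ect, with 3.3% and 3.55% called higher. The lists were chosen with earlier results known, and nothing particular to a list is read from its count. Dusp5 was higher by 0.76 in c30 and 0.64 in ect on the log2 scale and Dusp6 by 0.46 and 0.36, while Dusp4 was lower, at -0.24 and -0.23. Of the SRF, ETS and CREB regulators 3 of 12 were called higher in each. Srf was higher by 0.27 and 0.34 and Etv5, an ETS factor, by 0.40 and 0.23, with Etv4 at 0.20 in c30 and Ets1 at 0.24 in ect. Of 17 upstream kinases, Nras (0.19) and Map2k2 (0.22) were called higher and Rps6ka3 (-0.19) lower in c30, and in ect Map2k7 (0.28) was called higher and Mapk3 (-0.24) and Rps6ka3 (-0.18) lower.

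Of the AP-1 target genes, 4 of 14 tested were called higher and 0 lower in each mutant. All genes called higher were 3.3% in c30 and 3.55% in ect, and nothing is read from the count of this list either. The urokinase receptor gene Plaur was higher by 0.45 in c30 and 0.40 in ect, the growth factor gene Hbegf by 0.41 and 0.59, and the chromatin gene Hmga1 by 0.14 and 0.12. The remaining call was Phlda1 in c30 (0.94) and Ptgs2 in ect (0.32). Of 18 other immediate early genes, Ier5 was higher (0.26) and Klf6 lower (-0.15) in c30, and Ier5 (0.30), Myc (0.23) and Csrnp1 (0.59) were higher in ect. Maf, at -0.49 in c30, was the 1 call among 10 other bZIP partners, and 0 of 5 EGR corepressors and mRNA decay factors were called in either mutant, with 0 at an unadjusted p under 0.05.

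Between the lines, 70 of 87 related genes were called, 25 higher and 45 lower in B16 knockdown, beside 68.2% of all genes called, 33.8% higher and 34.3% lower. The counts of each list stand against the same shares, and nothing particular to a list is read from them. Of 14 AP-1 target genes tested, 12 were lower and 1 higher, among them Ccnd1, the cyclin D1 gene, at -2.50, and Timp1 at -4.58. Ptgs2 had 4874 counts in MC38 and 4 in B16. Of 19 other immediate early genes 14 were lower and 3 higher, with Plk2 at -4.59, Klf2 at -5.50, Dusp1 at -3.55 and Rhob at -1.92. Of 9 ERK feedback genes 7 were lower and 2 higher, with Spred2 at -1.58, Dusp5 at -3.32, Spry4 at -3.16 and Spred3 at -1.34. Upstream kinases went the other way, with 8 of 17 higher and 3 lower, such as Mapk14 (1.02), Braf (1.14) and Map2k1 (0.82). The SRF, ETS and CREB regulators were split, 5 higher and 4 lower of 12, with Etv4 at -6.75, Etv5 at -3.21 and Elk3 at -1.65 against Ets1 at 2.21. Of 11 other bZIP partners 5 were higher and 3 lower, with Maff at -2.66, Batf2 at 1.501, Atf3 at 1.14 and Mafk at 0.73. Of 5 EGR corepressors and mRNA decay factors, Zfp36l2 (-2.82) and Nab2 (-0.71) were lower and Zfp36l1 (0.43) higher.

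**Figure D5:**
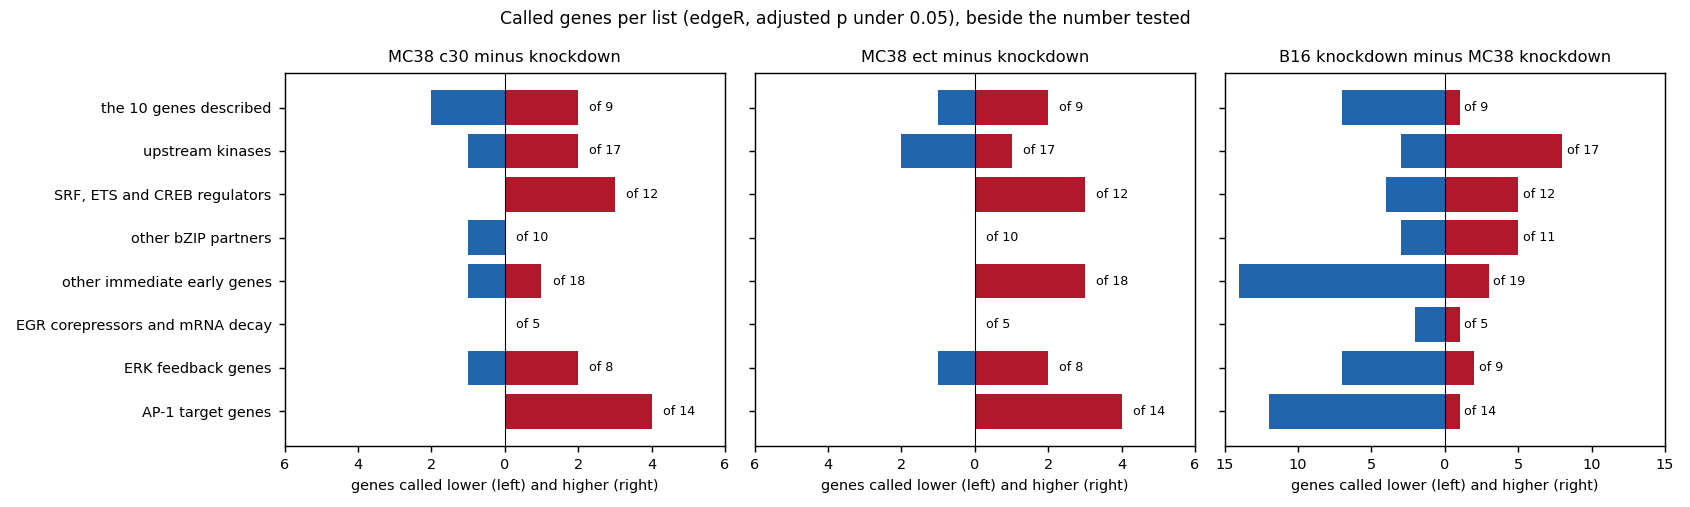
Number of genes called higher (right, red) and lower (left, blue) in each list, beside the number tested, for 3 comparisons in edgeR at an adjusted p under 0.05; the right panel has a wider axis. In both mutants of MC38 the AP-1 target genes hold 4 calls, all higher, and between the lines 12 of 14 of them are lower in B16. Of all genes tested, 3.3% in c30 and 3.55% in ect were called higher, and 34.3% were called lower in B16 knockdown.

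Genes with the most similar pattern were sought for Ier3 and Fosl2, the members with the widest variation within lines whose mean reached 5 CPM in both lines (SD 0.245 and 0.206 of line-centred log2 CPM). Likeness was the root mean square difference of line-centred log2 CPM over the 10 libraries, among 9080 genes. The closest to Ier3 were Zfas1 (0.0642), Cemip2 (0.0879) and Id2 (0.0902). The closest to Fosl2 were Pag1 (0.0597), Kremen1 (0.0634) and Hspg2 (0.0641). The libraries of a group are shared by all these genes, and the values are descriptions.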

How the data were processed

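Messenger RNA libraries were made from total RNA and sequenced from both ends, per the labels' protocols. The deposited values are raw counts per gene and library, made by the authors. Reads had been processed on GRCm39 with HISAT2 2.0.5, featureCounts, HTSeq, Trimmomatic and DESeq2, per the submitters' processing notes. Their order, the annotation, the strand setting and the treatment of reads with several matches are not given in the sources used here, so shared exons and near-identical copies can move counts between genes. Of 60676 rows, 51884 matched a symbol by Ensembl identifier.

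The main test was the 2-sided quasi-likelihood test of edgeR 4.0.16 under R 4.3.3, after filterByExpr and TMM, with robust dispersions. Each SE of a log2 fold change was derived from it, as the absolute change divided by the square root of the F statistic. For Egr1 in c30 against knockdown this gave 0.14, where DESeq2 gave 0.21. Calls were made at a Benjamini-Hochberg adjusted p under 0.05 over all genes in the fit. MC38 comparisons had a fit of 6 libraries and 15031 genes, B16 used 4 libraries and 14336 genes, and comparisons of lines all 10 libraries and 16877 genes. The common biological coefficient of variation was 4.84%, 8.68% and 6.65%. Levels of single libraries are CPM of the library total, and levels per kilobase use exon lengths of GENCODE M21 on GRCm38. Count ratios have exact 95% intervals. The code was tested on simulated data.

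The 10 genes and the lists were chosen with earlier results of these data known. All 10 are named in every comparison, with up to 4 called genes of smallest adjusted p per related list, and a few genes taken by that rule are left out here. The alternatives were RLE size factors, no filter on low counts, DESeq2 1.42.0, a replicate block, adjusted p under 0.01, other sets of libraries in the fit, and leaving out each library.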

Additional observations from a re-analysis of the deposited data

Results flagged for a closer look

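The effect of wild-type Sdc1 on Fosl2 in B16 differed from the effect of the ect label on it in MC38 by -0.5731 on the log2 scale (SE 0.13, edgeR adjusted p = 0.0312), by a test of the difference itself over all 10 libraries. Fosl2 was lower in both B16 libraries with wild-type Sdc1 than in both knockdown libraries, and overlapped between groups in MC38. The difference lay between -0.65 and -0.50 when each library was left out in turn and passed the threshold in 3 of those 10 fits. No cause was tested, and the line and the form of Sdc1 differ together.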

How the results depend on the processing

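Of 748 alternative values for single genes, 690 kept their direction and their side of the threshold, 26 lost a call, 13 gained one and 19 changed sign. Egr1 in c30 against knockdown and against ect, and Klf4 and Ier3 in both mutants against knockdown, kept theirs in all 12 alternatives each. Fosl1 in c30 lost its call in 7 of 12 and Jun in ect in 6 of 12. The cause of these changes was not tested.

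Related genes called in c30 against knockdown (16) came to 6 at an adjusted p under 0.01, 6 with DESeq2, 5 with all 10 libraries in 1 fit and 4 to 17 with 1 library left out. In ect (16) they came to 7 with DESeq2, 6 with all 10 libraries and 9 to 15 with 1 left out, and between the mutants (1) to 0, 0 and 0 to 1. In B16 the members called (0) came to 1 without a filter, 1 with all 10 libraries and 0 to 2 with 1 left out, namely 2 without wild-type replicate 1 and 1 without wild-type replicate 2. Related genes there (0) came to 1, 1 and 0 to 10. For the differences of effects, members called came to 0 to 3 against c30 (0) with 1 library left out, and against ect (1) to 0 at an adjusted p under 0.01 and 0 to 3, the 3 in each case being Fosl2, Jun and Ier3 without B16 wild-type replicate 1.

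Replicate numbers shared by groups gave correlations of deviations of 0.0641, -0.00894 and 0.0211 in MC38 and -0.184 in B16. Counting error enters these values, so they cannot exclude that the numbers pair samples. The main fit used no replicate block. With the replicate block, no count of members called changed, related genes in B16 came to 1 and all genes in B16 to 15. The crossed pairing in B16, chosen after seeing the data, gave 0 members, 0 related genes and 5 genes.

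Ier3 between the mutants was -0.0024 without a filter. Log2 fold changes that changed sign with 1 library left out ranged as follows. Against knockdown in c30, Fosb spanned -0.56 to 0.13 and Fosl2 -0.13 to 0.0204, and in ect, Fosl2 spanned -0.0452 to 0.10 and Junb -0.0227 to 0.13. Between the mutants, Fos spanned -0.0494 to 0.24 and Ier3 -0.0206 to 0.0248. In B16, Egr1 spanned -0.66 to 0.89 and Junb -0.455 to 0.0728. Among differences of effects, Junb against c30 spanned -0.35 to 0.201, and against ect Egr1 spanned -0.89 to 0.69 and Junb -0.52 to 0.0284.

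Of all genes, those called in c30 (1165) came to 604 at an adjusted p under 0.01, 409 with DESeq2 and 254 with all 10 libraries, 64 of these higher, and in ect (1227) to 689, 493 and 249, 65 of these higher. Between the mutants (45) they came to 26, 15 and 8. With 1 library left out these 3 counts were 464 to 1245, 776 to 1080 and 18 to 97. In B16 (0) they came to 42 without a filter, 11 with DESeq2 and 27 with all 10 libraries, and to 1295 and 326 without wild-type replicate 1 and 2. For the differences of effects (48 against c30, 82 against ect) they came to 15 and 21 at an adjusted p under 0.01, 159 and 189 without a filter, and against c30 to 80 with DESeq2, and to 13 to 1096 and 13 to 1170 with 1 library left out. Depth limits Fos, Fosb and Egr2 in both lines and Fosl1, Klf4 and Egr1 in B16, and 2 libraries a group limit every comparison.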
